A study of Mus musculus with 8 samples.

Results

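The immediate early response genes are a set of 36 genes known to be transcribed soon after a cell is stimulated, chosen by gene symbol from the deposited table of mouse retina expression. For a symbol with several rows, the row with the highest mean over the 8 libraries was taken. Of the 36 genes, 35 had a row and Dusp5 was not analysed here. The table holds 56465 features, and all 35 members passed the minimum mean of 10 normalized reads that 19798 features passed. The choice of members used no value from the libraries, but it was made with earlier results of these data known.

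The TG group was 4 retinas (replicates 2, 5, 6 and 8) of mice labelled as expressing human transferrin, a plasma protein that carries iron, and the WT group was 4 retinas (replicates 3, 4, 5 and 7) of wild-type mice. All 8 samples carry the strain label C57Bl/6J, and every retina, in both groups, had been detached by sodium hyaluronate injected beneath it (10 µl) and was taken 4 days later. TG had 2 males and 2 females, WT 3 males and 1 female; TG had 2 left and 2 right eyes, WT 1 left and 3 right. The labels give neither the age of the mice nor the promoter of the transgene, and retinas without detachment were not analysed here. Whether each retina had its own donor mouse is not spelled out in them, and p-values here describe the variation among these 8 retinas.

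Immediate early genes need no new protein synthesis for their induction. Kinase cascades and calcium or cyclic AMP signals act on transcription factors already present in the cell, such as serum response factor, its Elk partners and Creb, and these start transcription of the Fos, Jun, Egr, Klf and Nr4a genes. The products include further transcription factors and the proteins that end the response: Dusp phosphatases, which inactivate MAP kinases, and Zfp36, which speeds the decay of short-lived messenger RNAs. In the retina, light, injury and growth factors are known to induce Fos and related genes in neurons and in Mueller glia.

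Libraries held 61535690 to 70540242 counted reads in TG and 68433927 to 75866423 in WT, and mitochondrial features took 20.4% to 22.3% of normalized reads in TG and 21.9% to 27.5% in WT. As a check of the labelled tissue, all 8 cone photoreceptor markers, led by Pde6h and Opn1sw, were present in every library, with sums of 79115 to 120742 normalized reads in TG and 87701 to 115435 in WT. Some libraries held more RNA of neighbouring tissues. The 12 pigment epithelium markers, led by Ttr and Rgr, summed to 7428 to 44986 normalized reads in TG and 4769 to 102477 in WT, with the highest sum in WT 3. The 12 lens markers, led by Crybb2 and Cryaa, summed to 279 to 22738 normalized reads in TG and 159.6 to 27776 in WT, with the highest sums in WT 3 and TG 6. WT 3 also held the highest sum of 6 myelin markers (led by Mbp and Cnp), 11126 against 545 to 979 in the other 7 libraries, and WT 4 the highest of 10 neutrophil markers (led by S100a9 and S100a8), 2157 against 62.4 to 568. The part of these tissues in the values below was not tested. Human transferrin transcripts were not analysed here, so the genotype labels were not checked against them.

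No immediate early gene differed between TG and WT at an adjusted p under 0.05, in either direction (limma on log2(normalized reads + 1), adjusted over all 19798 features). Among all features, 0.00505% passed as higher and 0.00505% as lower. The members' adjusted p-values ran from 0.92 to 0.99 with limma, and 0 members passed with edgeR or DESeq2 on the recovered reads either, where edgeR called 0.00505% of features in each direction and DESeq2 0.0455% higher and 0.0354% lower. At an unadjusted p under 0.05, 5 members stood lower in TG and 0 higher, beside 2.62% and 2.02% of all features (limma). The 5 were Fos, Klf2, Klf4, Sgk1 and Dusp1. Without WT 7 that number was 1 (Fos), beside 2.33% of all features, and 0 stood higher, beside 1.92%. WT 7 was the highest library for all 5 and was singled out after its values were seen. Estimates closer to 0 without it follow from that choice. The fitted difference was below 0 for 23 of the 35 members, 65.7%, beside 52.2% of all features, and the median log2 fold change was -0.18 for the members and -0.017 for all features. Without WT 7, 21 members stood lower, with a median of -0.068, beside 10461 of all 19798 features and -0.021. Without TG 5 these values were 27 and -0.44, beside 10554 and -0.029. Without both, a choice made after the data were seen, they were 26 and -0.33, beside 10655 and -0.033. The groups failed to overlap for 1 member, Egr3, which was lower in TG, as were 1.16% of all features, while 0 members and 1.36% of features had every TG value above every WT value. In whole tissue, fewer cells of a type and less RNA per cell cannot be told apart.

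**Figure D1:**
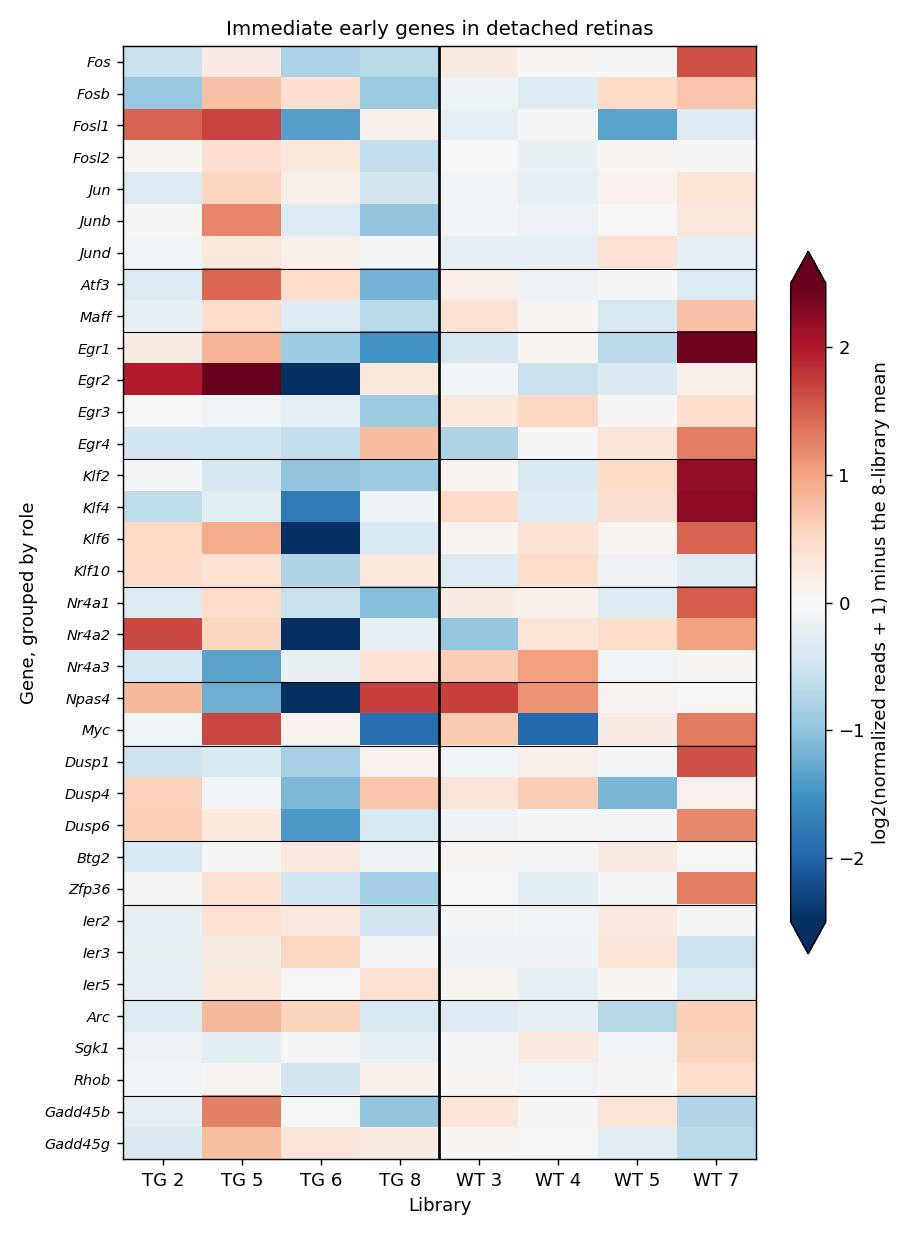
Each row is 1 of the 35 measured immediate early genes, grouped by role, and each column 1 library, with TG to the left of the vertical line and WT to the right. Colour gives log2(normalized reads + 1) minus the gene's mean over the 8 libraries, with red above and blue below it and values past 2.5 shown at the end of the scale. The WT 7 and TG 5 columns hold most of the red, in partly different rows, and TG 6 holds the deepest blue.

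The Fos and Jun families encode the subunits of the AP-1 transcription factor, Fos proteins pairing with Jun proteins. Fos had 933, 1574, 790.4 and 860.4 normalized reads in TG 2, 5, 6 and 8, against 1603, 1427, 1341 and 4131 in WT 3, 4, 5 and 7. WT 7 stood apart from the other WT libraries, and TG 5 lay inside the WT range. The group values were 1039 ± 361 normalized reads in TG and 2125 ± 1341 in WT (SD, n = 4 each), and the log2 fold change was -0.92 ± 0.32 (SE). Without WT 7 it was -0.54. Fosb, a close relative of Fos, had 204, 651, 522 and 205 normalized reads in TG 2, 5, 6 and 8, against 361, 311, 555 and 634 in WT 3, 4, 5 and 7. TG 2 and TG 8 lay below every WT library and TG 5 above every one, and the log2 fold change was -0.37 ± 0.38 (SE). Jun had 3126, 5727, 4394 and 2889 normalized reads in TG 2, 5, 6 and 8, against 3781, 3355, 4301 and 5009 in WT 3, 4, 5 and 7, so the TG libraries bracketed the WT ones. Its log2 fold change was -0.066 ± 0.21 (SE). Junb, which forms a weaker activator than Jun, had 3371, 7711, 2595 and 1662 normalized reads in TG 2, 5, 6 and 8, against 3129, 2964, 3275 and 3990.1 in WT 3, 4, 5 and 7. TG 5 lay above every WT library and TG 6 and TG 8 below every one. The Junb groups averaged 3835 ± 2677 normalized reads in TG and 3339.6 ± 452 in WT (SD, n = 4 each), with a log2 fold change of -0.028 ± 0.34 (SE). Of the remaining AP-1 subunits, Fosl1 had a log2 fold change of 0.95 ± 0.63 (SE), with 24.7 to 215 normalized reads in TG and 25.4 to 64.4 in WT. Fosl2 stood at 0.055 ± 0.24 (SE), or -0.075 without TG 5, and Jund at 0.14 ± 0.16 (SE). Junb, Fosl1 and Jund overlap Prdx2, Ccdc85b and Pik3r2 in the deposited coordinates, and no source used here gives the strand setting of the counting, so reads of these pairs may not be fully separated. TG 5 was the highest TG library for all 7 genes of these families, where it was the highest for 22.3% of all features.

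Atf3, a stress-induced partner and antagonist of AP-1, had 1591, 5492, 2799.7 and 889.7 normalized reads in TG 2, 5, 6 and 8, against 2262, 1848, 1954 and 1599.8 in WT 3, 4, 5 and 7. TG 5 was the highest of all 8 libraries and TG 8 the lowest, while the WT libraries lay close together. The means were 2693 ± 2026 normalized reads in TG and 1916 ± 274 in WT (SD, n = 4 each), and the log2 fold change was 0.18 ± 0.40 (SE). It was -0.26 without TG 5, the opposite sign. Maff, a small Maf protein, stood at -0.38 ± 0.32 (SE).

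The Egr genes encode zinc finger transcription factors that bind GC-rich sites and report MAP kinase and neuronal activity. Egr1 had 1716, 2682, 790.4 and 521 normalized reads in TG 2, 5, 6 and 8, against 1114, 1563, 936 and 7901 in WT 3, 4, 5 and 7. WT 7 lay far above all other libraries. TG 6 and TG 8 lay below the other 3 WT libraries, and TG 2 and TG 5 above them. Its means were 1427 ± 981 normalized reads in TG and 2879 ± 3359 in WT (SD, n = 4 each), with a log2 fold change of -0.69 ± 0.61 (SE), and -0.0041 without WT 7. Egr3 had 56.7, 52.8, 46.9 and 29.3 normalized reads in TG 2, 5, 6 and 8, against 67.5, 81.0, 57.1 and 76.0 in WT 3, 4, 5 and 7. Every TG value lay below every WT value, although TG 2 at 56.7 and WT 5 at 57.1 nearly touched. The log2 fold change of Egr3 was -0.62 ± 0.41 (SE). Egr2, which in peripheral glia directs myelination, had 79.8, 159, 0 and 23.4 normalized reads in TG 2, 5, 6 and 8, against 18.4, 12.9, 14.8 and 21.4 in WT 3, 4, 5 and 7. TG 2, TG 5 and TG 8 exceeded all WT libraries, TG 8 narrowly, and TG 6 held no read of it, so the TG libraries enclosed the WT range. Egr2 had a log2 fold change of 0.43 ± 1.25 (SE), which was -0.49 without TG 5, the opposite sign, and 2.81 in males only. Egr4 stood at -0.41 ± 0.55 (SE), or -0.053 without WT 7.

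The Klf genes encode zinc finger factors. Klf2 and Klf4 are known for their induction by blood flow in endothelial cells. Klf2 had 172, 131, 88.9 and 94.6 normalized reads in TG 2, 5, 6 and 8, against 187, 134, 253 and 815 in WT 3, 4, 5 and 7. WT 7 was again far above the rest, and TG 2 lay inside the WT range. Its group means were 122 ± 38.4 normalized reads in TG and 347 ± 316 in WT (SD, n = 4 each), with a log2 fold change of -1.19 ± 0.47 (SE), and -0.65 without WT 7. Klf4 had 63.8, 81.9, 28.4 and 90.7 normalized reads in TG 2, 5, 6 and 8, against 139, 79.2, 131 and 471 in WT 3, 4, 5 and 7. TG 6 was the lowest library and WT 7 the highest, and WT 4 lay below TG 5 and TG 8. Klf4 averaged 66.2 ± 27.6 normalized reads in TG and 205 ± 179 in WT (SD, n = 4 each), and its log2 fold change was -1.40 ± 0.54 (SE), or -0.89 without WT 7. The 12 endothelial markers, led by Cldn5 and Ly6c1 and none of which was at 0 in any library, summed to 5197 to 9234 normalized reads in TG and 6367 to 13448 in WT. WT 7 held the highest sum, 13448, where WT 3, 4 and 5 held 6367 to 7849. It was the highest WT library for 11 of the 12 markers, beside 28.1% of all features. The part of endothelial RNA in the Klf2 and Klf4 values was not tested. Klf6 stood at -0.996 ± 0.70 (SE), with 12.3 normalized reads in TG 6 and 301 in WT 7 as its extremes, and Klf10 at 0.19 ± 0.33 (SE).

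The Nr4a genes encode orphan nuclear receptors that neuronal activity and stress induce. Nr4a1 had 457, 787, 391 and 274 normalized reads in TG 2, 5, 6 and 8, against 649, 627, 450.2 and 1635 in WT 3, 4, 5 and 7. WT 7 was the highest library and TG 8 the lowest, and TG 5 and TG 2 lay inside the WT range. Nr4a1 averaged 478 ± 219.9 normalized reads in TG and 840.2 ± 537 in WT (SD, n = 4 each), with a log2 fold change of -0.74 ± 0.38 (SE), and -0.36 without WT 7. Nr4a2, a factor of dopaminergic neurons, stood at -0.43 ± 0.82 (SE) and Nr4a3 at -0.80 ± 0.41 (SE). Nr4a3 had its highest TG value in TG 8, at 146, and its highest WT value in WT 4, at 230.2. Npas4, a factor induced by calcium entry in neurons, had 31.9, 7.04, 0 and 60.5 normalized reads in TG 2, 5, 6 and 8, against 60.4, 39.6, 19.0 and 17.5 in WT 3, 4, 5 and 7. It was low everywhere and absent from the reads of TG 6, and the groups overlapped. Npas4 had a log2 fold change of -1.46 ± 1.12 (SE). Myc, a growth regulator, had 16.0, 57.2, 18.5 and 3.90 normalized reads in TG 2, 5, 6 and 8, against 27.6, 3.68, 20.1 and 43.9 in WT 3, 4, 5 and 7. These are few reads, the groups spanned like ranges, and the log2 fold change of -0.11 ± 0.94 (SE) carries a standard error larger than itself.

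Dusp1, Dusp4 and Dusp6 encode phosphatases that inactivate MAP kinases in feedback. Dusp1 had 167, 184, 135 and 258 normalized reads in TG 2, 5, 6 and 8, against 227, 259.6, 236 and 721 in WT 3, 4, 5 and 7. The TG libraries lay mostly below the WT ones, TG 8 excepted, and WT 7 was far above the rest. Dusp1 averaged 186 ± 52.1 normalized reads in TG and 361 ± 241 in WT (SD, n = 4 each), with a log2 fold change of -0.81 ± 0.37 (SE), and -0.41 without WT 7. Dusp6, which acts on ERK, stood at -0.48 ± 0.44 (SE), with its highest value, 387, in WT 7. Dusp4 stood at 0.042 ± 0.42 (SE), with 193 to 674 normalized reads in TG and 190.2 to 639.9 in WT.

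Zfp36 encodes tristetraprolin, which binds AU-rich elements and promotes messenger RNA decay. It had 621, 774, 432 and 336 normalized reads in TG 2, 5, 6 and 8, against 605, 496, 588 and 1479.9 in WT 3, 4, 5 and 7. WT 7 stood above all others, and TG 6 and TG 8 lay below every WT library. The log2 fold change of Zfp36 was -0.48 ± 0.34 (SE), or -0.13 without WT 7. Btg2, which recruits deadenylases and restrains division, had 4848, 6448, 7470.3 and 5771 normalized reads in TG 2, 5, 6 and 8, against 6673, 6190.4, 7353 and 6360.0 in WT 3, 4, 5 and 7. No library stood apart for Btg2, and its log2 fold change was -0.13 ± 0.14 (SE).

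To show which signal-response motifs lie near the start sites, promoter windows of 250 bases before to 50 after the start (RefSeq, GRCm38.p6) were searched on both strands, for the 27 measured members with a window in that table. The CArG box, bound by serum response factor, was present for 2 members (7.41%) and 1.81% of all 27025 genes. The cyclic AMP response element TGACGTCA, bound by Creb, was present for 3 members (11.1%) and 2.03% of all genes. The AP-1 site TGANTCA was present for 0 members and 8.97% of all genes. The Egr motifs GCGTGGGCG and GCGGGGGCG were present for 1 and 6 members (3.70% and 22.2%), and 0.707% and 3.31% of all genes. The TATA box TATAAA was present for 6 members (22.2%) and 15.7% of all genes. Counts this small describe these windows only, and sites further upstream were not searched. Of the holders of a CArG box (Egr2 and Zfp36) or TGACGTCA (Dusp1, Btg2 and Maff), the first 4 in the order of the members are printed below, grouped by motif. Relative to the median of the other 3 WT libraries, WT 7 held 2.52 times as much Zfp36 and 1.45 times as much Egr2, and 3.06 times as much Dusp1 and 0.953 times as much Btg2. Any link between these motifs and the WT 7 values was not tested. Capitals mark the motif, which begins 58 bases before the start site in Zfp36, 72 in Egr2 (1 of 5 windows listed for it), 143 in Dusp1 and 166 in Btg2.
Zfp36, minus strand, chr7:28379179-28379478: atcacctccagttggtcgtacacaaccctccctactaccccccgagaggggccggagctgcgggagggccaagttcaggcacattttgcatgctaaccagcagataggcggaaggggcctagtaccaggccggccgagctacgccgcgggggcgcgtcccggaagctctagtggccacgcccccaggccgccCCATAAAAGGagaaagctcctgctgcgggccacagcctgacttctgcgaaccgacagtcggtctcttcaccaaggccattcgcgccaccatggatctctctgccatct
Egr2, plus strand, chr10:67537316-67537615: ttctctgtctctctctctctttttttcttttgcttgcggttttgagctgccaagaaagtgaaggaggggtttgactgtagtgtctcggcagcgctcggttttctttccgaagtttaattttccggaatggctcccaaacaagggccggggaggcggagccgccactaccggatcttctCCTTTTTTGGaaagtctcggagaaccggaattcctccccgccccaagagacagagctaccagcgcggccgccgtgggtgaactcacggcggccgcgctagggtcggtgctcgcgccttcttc
Dusp1, minus strand, chr17:26508423-26508722: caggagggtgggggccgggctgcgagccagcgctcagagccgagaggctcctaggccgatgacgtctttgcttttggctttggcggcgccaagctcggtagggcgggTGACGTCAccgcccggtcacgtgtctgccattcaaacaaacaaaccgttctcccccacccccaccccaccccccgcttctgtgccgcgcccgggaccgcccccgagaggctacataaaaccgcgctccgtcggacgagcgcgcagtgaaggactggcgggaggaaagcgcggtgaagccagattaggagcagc
Btg2, minus strand, chr1:134079106-134079405: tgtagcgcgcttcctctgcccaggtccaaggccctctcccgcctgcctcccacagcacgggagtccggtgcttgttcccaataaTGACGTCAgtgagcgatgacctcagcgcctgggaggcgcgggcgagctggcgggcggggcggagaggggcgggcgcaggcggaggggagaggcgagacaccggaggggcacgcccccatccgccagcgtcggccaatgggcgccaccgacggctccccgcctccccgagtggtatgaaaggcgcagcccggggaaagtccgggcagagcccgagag

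**Figure D2:**
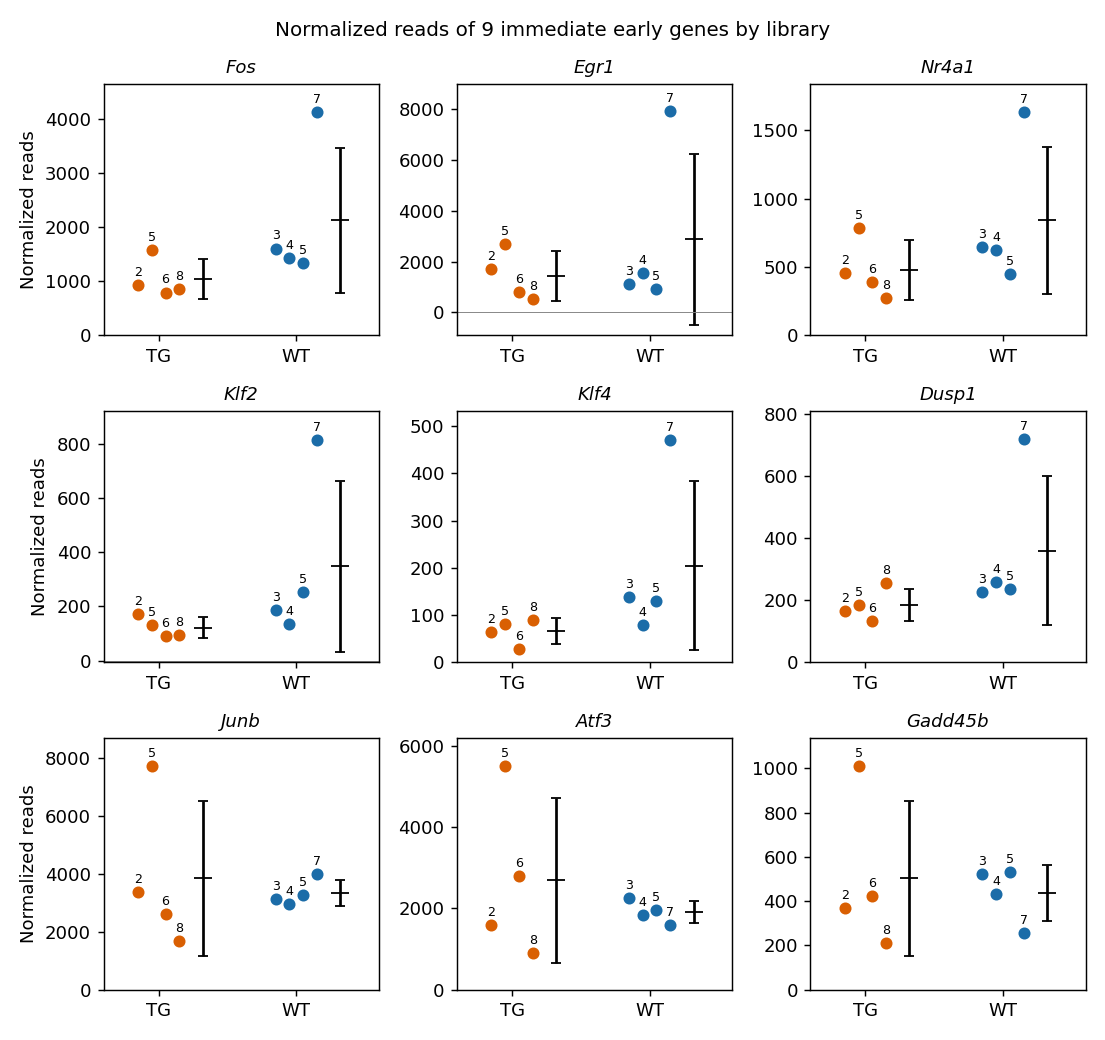
Normalized reads (vertical axes, each with its own scale) of 9 immediate early genes, 1 point a library with its replicate number, TG left and WT right, with the mean and SD of 4 libraries as a bar. In the panels from Fos to Dusp1, WT 7 is the highest point, and in the panels of Junb, Atf3 and Gadd45b, TG 5 is.

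The Ier genes are named for their immediate early response and include Ier2, a nuclear protein. Ier2 had 1801, 2718, 2477 and 1526 normalized reads in TG 2, 5, 6 and 8, against 2031, 1933, 2467 and 2006 in WT 3, 4, 5 and 7. The TG libraries enclosed the WT range, and the log2 fold change was -0.018 ± 0.19 (SE). Ier3, a stress-induced survival gene, stood at 0.24 ± 0.19 (SE) and Ier5, a regulator of heat shock factor, at 0.22 ± 0.17 (SE).

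Arc encodes a synaptic protein induced by neuronal activity. It had 88.6, 201, 168 and 85.8 normalized reads in TG 2, 5, 6 and 8, against 90.1, 97.6, 69.8 and 172 in WT 3, 4, 5 and 7. TG 5, WT 7 and TG 6 formed an upper group of libraries and the other 5 a lower one, so genotype did not separate them. The log2 fold change of Arc was 0.32 ± 0.40 (SE), 0.57 without WT 7 and 0.099 without TG 5. Sgk1, a kinase induced by glucocorticoids and osmotic stress and the member with the most reads, had 12154, 11173, 13099 and 11312 normalized reads in TG 2, 5, 6 and 8, against 13172, 15838, 12818 and 19621 in WT 3, 4, 5 and 7. The groups overlapped only where TG 6, at 13099, exceeded WT 5, at 12818. Sgk1 averaged 11935 ± 889 normalized reads in TG and 15362 ± 3143 in WT (SD, n = 4 each), with a log2 fold change of -0.35 ± 0.15 (SE), and -0.22 without WT 7. Rhob, a small GTPase of endosomes, stood at -0.18 ± 0.16 (SE).

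Gadd45b and Gadd45g encode growth arrest and DNA damage response proteins. Gadd45b had 1011 normalized reads in TG 5, against 213 to 424 in the other TG libraries and 256 to 532 in WT, and WT 7 was the lowest WT library. The log2 fold change was 0.028 ± 0.40 (SE), and it turned negative without TG 5, at -0.38, and without WT 7, at -0.21. Gadd45g stood at 0.46 ± 0.23 (SE), the most positive estimate among members with a mean of at least 1000 normalized reads. Its highest value, 2086, was in TG 5 and its lowest, 776, in WT 7.

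**Figure D3:**
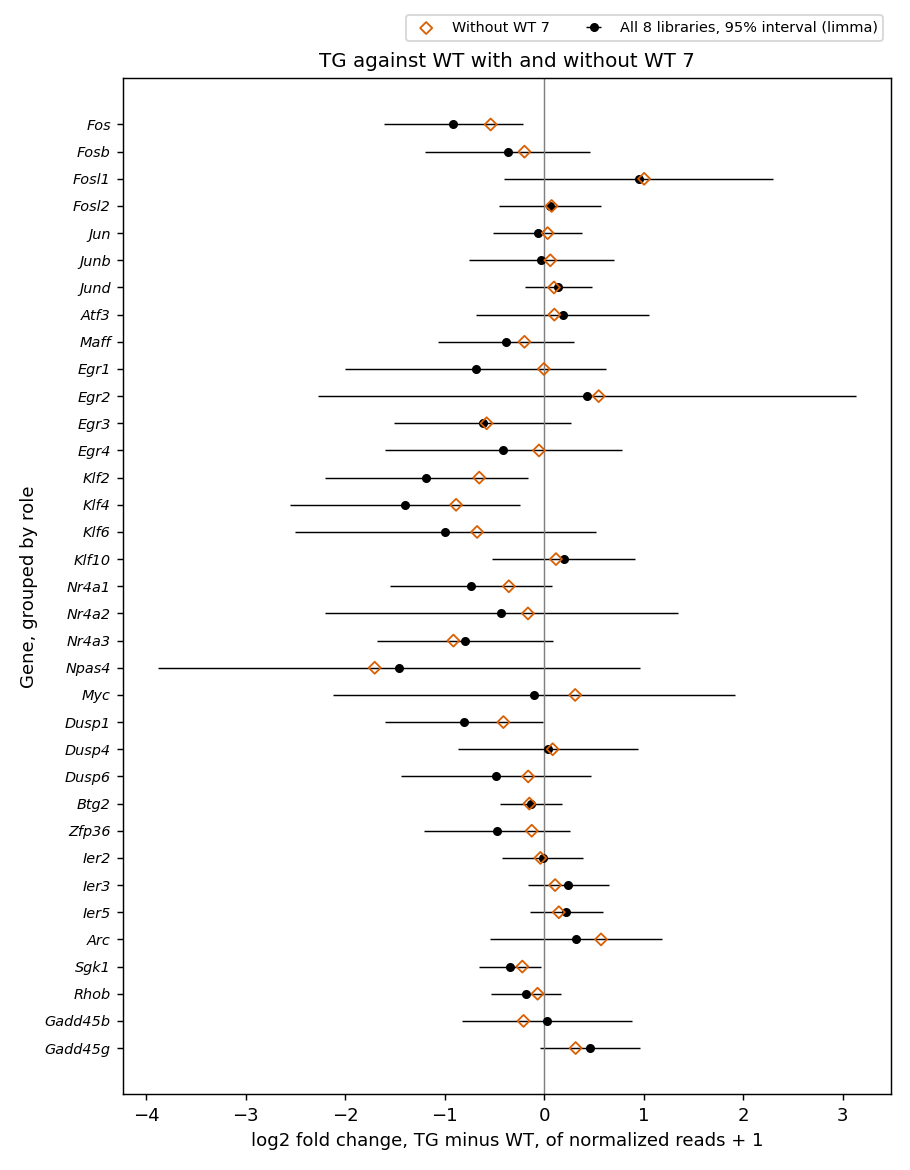
Log2 fold change, TG minus WT, of each immediate early gene (horizontal axis, normalized reads + 1), with the 95% interval from all 8 libraries (limma) and, as open diamonds, the estimate without WT 7. Intervals of Fos, Klf2, Klf4, Dusp1 and Sgk1 lie below 0 before adjustment, and in these genes the estimate without WT 7 lies closer to 0. WT 7 is the highest library in each of these genes, so that shift follows from leaving it out.

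The spread within groups was wide relative to the difference between them. The median SD of log2(normalized reads + 1) over the members was 0.62 in TG and 0.49 in WT, where over all features it was 0.40 in TG and 0.39 in WT. Without TG 5 and WT 7, the members' median SD was 0.52 in TG and 0.25 in WT, beside 0.39 and 0.34 over all features. These 2 libraries were picked after they were seen to be high in many of the members, so a smaller spread without them follows from that choice. The members' median deviation from the 8-library mean was -0.14, 0.38, -0.34 and -0.39 in TG 2, 5, 6 and 8, and -0.0029, -0.035, -0.0047 and 0.43 in WT 3, 4, 5 and 7. The same median over all features lay between 0.012 and 0.036 in every library, which the scaling by size factors itself keeps close to 0.

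**Figure D4:**
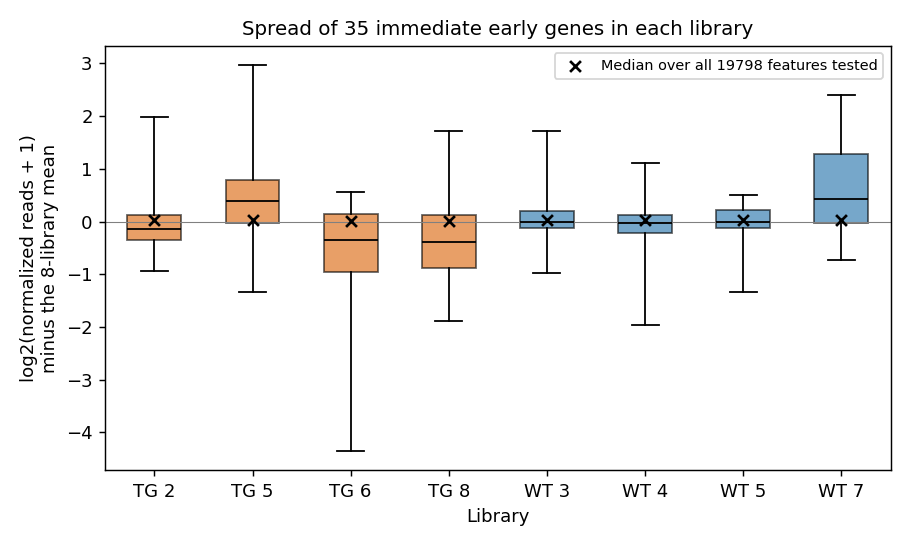
Boxes show the quartiles and median of the 35 members' deviations, log2(normalized reads + 1) minus the 8-library mean, in each library, with whiskers to the lowest and highest member; crosses give the median over all 19798 features tested. The boxes of TG 5 and WT 7 lie mostly above 0 and those of TG 6 and TG 8 mostly below it, while the crosses stay near 0.

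WT 7 and TG 5 were high for partly different members. A library was counted as standing above its group where it held at least 1.5 times the next highest library of that group, a ratio set after the values were seen. TG 5 did so for 9 of 35 members, 25.7%, beside 5.22% of all features, and WT 7 for 12, 34.3%, beside 5.49% of all features. Fos, Egr1, Nr4a1 and Myc were in both sets. TG 5 alone also stood above its group for Junb, Egr2, Atf3, Maff and Gadd45b, and WT 7 for Egr4, Klf2, Klf4, Klf6, Dusp1, Dusp6, Zfp36 and Arc. TG 5 also held the most RNA of microglia and macrophage markers, led by C1qb and C1qa: its sum over the 12 markers was 47928, against 19627 to 30888 in the other TG libraries and 19719 to 28627 in WT, and it was the highest TG library for all 12. Endothelial markers, given above, were also high in WT 7, but not they alone. WT 7 was the highest WT library for 9 of 12 rod, 7 of 10 Mueller glia, 6 of 9 ganglion cell and 6 of 8 bipolar cell markers. It was so for 0 of 12 microglia and 0 of 12 lens markers, and for 28.1% of all features. The part of any of these cell types in these sets of genes was not tested. At the low end, TG 6 was the lowest TG library for 14 members, 40.0%, and TG 8 for 13, 37.1%, where they were the lowest for 29.7% and 25.3% of all features.

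WT 7 was the 1 WT female and the 1 WT left eye, so sex, eye and this library cannot be told apart within WT. In males (2 TG and 3 WT libraries), 23 of 35 members stood higher in TG and 12 lower, with a median log2 fold change of 0.12, and 0 passed. Among all 19798 features in males, 10127 stood higher and 9670 lower, with a median of 0.010. The TG males were TG 2 and TG 5, and the TG females were TG 6 and TG 8. The male fit thus keeps the high TG library, drops the low TG ones and also drops WT 7, the high WT library. Sex and these libraries therefore cannot be told apart. At an unadjusted p under 0.05 in males, Fosl1, Junb, Egr1 and Egr2 stood higher and Nr4a3 lower, beside 2.34% and 2.82% of all features. A genotype by sex interaction, fitted over all 8 libraries with limma, passed for 1 member, Egr1 (log2 -4.49, adjusted p = 0.014), which was the 1 feature called lower among 19798 (0.00505%), with 0.0% called higher. Egr1 had 790.4 and 521 normalized reads in the TG females against 7901 in the WT female, and 1716 and 2682 in the TG males against 1114, 1563 and 936 in the WT males. That interaction rests on WT 7. At an unadjusted p under 0.05 the interaction was negative for 14 members and positive for 0, beside 11.8% of all features in either direction. With genotype as a term, 0 members passed between females and males (0.00505% of features called higher in females and 0.0253% lower, and 3.23% at an unadjusted p under 0.05, where 1 member, Gadd45b, stood lower in females) and 0 between left and right eyes (0.0% in both directions, and 3.7% at an unadjusted p under 0.05, with 4 members, Klf2, Ier5, Sgk1 and Gadd45g).

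Genes upstream of the response and other rapidly induced genes, listed with earlier results of these data known, were read from the same fit. Of 38 kinases, transcription factors and coactivators upstream, 13 stood higher and 25 lower in TG, 65.8%, beside 52.2% of all features. Their median log2 fold change was -0.10, and 0 passed. At an unadjusted p under 0.05, 1 stood lower and 0 higher, beside 2.62% and 2.02% of all features (limma). The 4 genes named next were picked as those with the smallest p of the 38. Srf, the serum response factor gene, had 289 ± 51.4 normalized reads in TG and 416 ± 96.1 in WT (SD, n = 4 each) and a log2 fold change of -0.51 ± 0.24 (SE). Mkl2, one of its coactivators, had 30.1, 32.6, 33.3 and 31.2 normalized reads in TG 2, 5, 6 and 8, against 59.4, 65.4, 38.0 and 105 in WT 3, 4, 5 and 7. Every TG value of Mkl2 lay below every WT value, as for 1.16% of all features, and its log2 fold change was -0.96 ± 0.47 (SE). Mef2d, a calcium-responsive factor, stood at -0.59 ± 0.25 (SE) and the acetyltransferase gene Ep300 at -1.29 ± 0.61 (SE).

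Of 50 other rapidly induced genes, 47 were tested. Of these, 24 stood higher and 23 lower, the median was 0.0046, and 0 passed. The first 4 genes named below were picked as those with the smallest p. Trib1, a pseudokinase gene, had 2796, 3693, 3028 and 2883 normalized reads in TG 2, 5, 6 and 8, against 1940.5, 2189, 2264 and 2515 in WT 3, 4, 5 and 7. All TG values exceeded all WT values, as for 1.36% of all features, and the log2 fold change was 0.47 ± 0.14 (SE). Ptgs2, the inducible cyclooxygenase gene, had 39.0, 66.9, 27.2 and 42.9 normalized reads in TG 2, 5, 6 and 8, against 123, 226, 82.4 and 70.2 in WT 3, 4, 5 and 7. Its TG values all lay below its WT values, as for 1.16% of all features, with a log2 fold change of -1.41 ± 0.47 (SE). Sik1, a kinase gene under Creb control, stood at -2.52 ± 0.90 (SE), with 2.47 normalized reads in TG 6 and 334 in WT 7 as its extremes. Nfkbiz, an NF-kappaB regulator, stood at -0.81 ± 0.33 (SE). WT 7 held at least 1.5 times the next WT library for 4 of these 47 genes (8.51%), beside 5.49% of all features. Among the 4 were Csrnp1 and Cyr61, which were picked after their values were seen. Csrnp1, a nuclear protein gene, had 136 normalized reads in WT 7, where WT 3, 4 and 5 had 6.34 to 20.3, and Cyr61, a matrix signalling protein gene, had 911 where they had 142 to 208. TG 5 held at least 1.5 times the next TG library for 6 of the 47 (12.8%), beside 5.22% of all features.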

How the data were processed

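Messenger RNA of 8 detached mouse retinas was profiled by sequencing of polyadenylated, strand-marked libraries, per the labels' protocols. The deposited values are a signal, read counts that the authors divided by a DESeq2 size factor for each library, as the deposited file's name says. The submitters' processing notes name FastQC, Picard, SAMtools, STAR 2.4.0, DESeq2 and the builds mm10 and GRCm38. The counting tool and its strand setting are given in no source used here. Every positive value (100% of them) lay within 0.01 of a whole multiple of its column's smallest, so whole reads were recovered for the count tests. Sample columns matched titles, and 0 were left unmapped. The 8 libraries were all distinct, the closest pair having a chi-square of 46.1 per feature.

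TG was compared with WT by limma 3.58.1 (R 4.3.3) on log2(normalized reads + 1), with a prior variance that follows the mean. The 19798 features averaging 10 or more normalized reads were tested, and Benjamini-Hochberg adjustment ran over all of them at a threshold of 0.05. Log2 fold changes are TG minus WT, and those of low genes depend on the number added. That of Npas4 was -1.71 with 0.5 added, -1.46 with 1 and -0.86 with 5, and -0.45 with both edgeR and DESeq2. edgeR 4.0.16 (quasi-likelihood) and DESeq2 1.42.0 on recovered reads were alternatives, together with TMM and upper-quartile scaling, pseudocounts of 0.5 and 5, a minimum mean of 50 or none, models that include sex or eye, males alone, array weights, no variance trend, and leaving out libraries. Leaving out WT 7 and TG 5 together was added after the data were seen. The procedure was tested on simulated counts with large changes in 200 features averaging 50 or more normalized reads, and the outcome is not reported here. That simulation did not cover smaller changes, lower genes or a library raised over many genes.

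The members and the lists of other genes and markers were chosen with earlier results of these data known. Values in every library are given for members with an unadjusted p under 0.05, for members whose groups did not overlap, and for Fos, Fosb, Jun, Junb, Egr1, Atf3, Klf2, Klf4, Dusp1, Nr4a1, Zfp36, Btg2, Ier2, Arc, Npas4 and Myc, and were added for Egr2 and in part for Gadd45b after their values were seen. Of each list of other genes, the 4 with the smallest p are named. Each marker list reported is given by its summed normalized reads, with its 2 markers of highest mean named; a few marker results are not reported here.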

Additional observations from a re-analysis of the deposited data

Results flagged for a closer look

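Of 70 groups of 4 libraries (35 members in TG and in WT), 10 held 1 library far from the other 3 in normalized reads. In 8 of these the library was WT 7, always as the highest of WT: Fos at 4131 normalized reads, Egr1 at 7901, Klf4 at 471, Klf6 at 301, Dusp1 at 721, Dusp6 at 387, Nr4a1 at 1635 and Zfp36 at 1480 (1479.9). These 8 genes share the library, so the flags are not independent of one another. The others were Egr4 in TG 8, at 78.0 normalized reads, and Jund in WT 5, at 10005. About 1 group in 20 is flagged by chance where values are normally distributed, which reads off the log2 scale need not be. Flags on the log2 scale and over all features are not given here, so the 10 cannot be set against chance. The TG minus WT difference of Egr1 differed between the sexes by a log2 value of -4.49 in females minus males (adjusted p = 0.014, limma interaction), with WT 7 as the 1 WT female. No explanation of these values was tested.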

How the results depend on the processing

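No paired analysis was possible because the TG and WT replicate numbers share 1 number, replicate 5. Under 23 alternatives, 0 members passed (lowest adjusted p 0.61 with limma or edgeR, 0.46 with DESeq2). The direction held under all of them for 9 of the 18 members given in full, and 38 of 412 of their fold changes had the opposite sign. Males only leaves TG 2 and TG 5 in TG and drops WT 7 from WT. With that setting, 23 members stood higher and 12 lower, with a median log2 fold change of 0.12. The main values are 12, 23 and -0.18. In males, log2 fold changes were 0.16 for Jun, 0.71 for Junb, 0.87 for Egr1 and 0.054 for Ier2. They were 0.079 for Nr4a1, 0.30 for Zfp36 and 1.15 for Myc. Leaving out 1 library gave 8 to 15 members higher, 20 to 27 lower and a median of -0.44 to -0.07. It gave log2 fold changes of -0.25 to 0.076 for Jun, -0.44 to 0.29 for Junb, -0.26 to 0.61 for Atf3, -0.15 to 0.13 for Ier2, -2.27 to -0.29 for Npas4 and -0.78 to 0.51 for Myc. Junb stood at 0.020 with upper-quartile scaling, 0.12 with sex as a term, 0.27 with array weights, 0.20 with both edgeR and DESeq2, and 0.053 without WT 3 and TG 6. Ier2 stood at 0.030 with upper-quartile scaling, 0.019 with sex as a term, 0.066 with array weights and 0.015 with both count tests. Jun stood at 0.075 with array weights. Myc stood at 0.61 with array weights, 0.0093 with edgeR, 0.0090 with DESeq2 and 0.043 without WT 3 and TG 6, where Npas4 stood at 0.037. Without WT 7 and TG 5, 9 members stood higher and 26 lower, with a median of -0.33. Atf3 then stood at -0.35 and Ier2 at -0.17. Over the whole table, where limma called 1 feature higher and 1 lower, DESeq2 called 9 and 7, males only called 3 lower, and 0 were called higher with a pseudocount of 0.5, no filter, a minimum mean of 50, sex as a term, no variance trend, or without WT 7 and TG 5. Leaving out 1 library gave 0 to 2 called higher and 1 to 2 lower. The cause of these shifts was not tested. Npas4 and Myc had means of 29.5 and 23.9 normalized reads, and the part of depth in their spread was not tested.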

Other observations

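Markers of the remaining cell types gave these summed normalized reads. The 10 Mueller glia markers, led by Apoe and Vim, summed to 199642 to 275885 normalized reads in TG and 157426 to 229450.0 in WT. Among neurons of the inner retina, the 9 ganglion cell markers (led by Nefl and Thy1) summed to 72711 to 130162 normalized reads in TG and 84927 to 131996 in WT. The 8 amacrine markers, led by Calb2 and Slc6a9, summed to 24486 to 45816 normalized reads in TG and 19271 to 30816 in WT. Pericyte and smooth muscle markers (8 genes, led by Rgs5 and Tagln) summed to 16123 to 21436 normalized reads in TG and 16302 to 24665 in WT, and 6 red blood cell markers (led by Hbb-bs and Hba-a1) to 14479.9 to 27137 normalized reads in TG and 2635 to 39075 in WT. The groups overlapped in each of these sums. Of the neutrophil markers, Ly6g and Elane were at 0 in all 8 libraries.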
